A study of Drosophila melanogaster with 2 samples.

Results

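The nuclear genes for the respiratory chain and ATP synthase were examined for peaks of Sox102F in whole Drosophila melanogaster embryos. Protein-coding genes of the Ensembl BDGP6 annotation whose symbol starts with ND-, COX, UQCR, Sdh or ATPsyn were taken, which gave 88 of 13968 genes on 7 chromosome arms. They comprised 40 genes of complex I (ND-), 8 of complex II (Sdh), 9 of complex III (UQCR), 16 of complex IV (COX) and 15 of complex V (ATPsyn). Of these, 87 are named for subunits, and Sdhaf3 for an assembly factor of complex II. The label fits these genes but is not complete, since some subunits have symbols of another form, such as blw, levy and cype.

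The embryos came from a transgenic line that stably expresses the SoxD-family transcription factor Sox102F, fused at its C-terminus to GFP. They were 12 to 14 h old, and chromatin immunoprecipitation followed by sequencing was done with an antibody to GFP. The 2 samples, biological replicates 2 and 3, formed 1 group, and neither an untagged line nor the control that entered peak calling was analysed here. The authors' peak lists held 30000 peaks for each replicate, 30000 for both replicates pooled, and 7488 in the optimal list, kept by the irreproducible discovery rate (IDR) per its name. The optimal list is the top of the pooled list by signal value, the authors' score of a peak, with a lowest value of 97.2. Whole embryos mix all tissues, so a peak does not say in which cells the protein was bound, and read depth was unknown.

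Complexes I to IV of the inner mitochondrial membrane pass electrons from NADH and succinate to oxygen, and complexes I, III and IV pump protons while they do so. Complex V, the ATP synthase, uses the proton gradient to make ATP. Subunits are encoded in part by the mitochondrial genome and in larger part by the nucleus, so the nuclear genes have to be expressed in nearly every cell. In Drosophila many of these genes have a duplicate that is used mainly in the testis, and such duplicates carry the parent's symbol with an L, for like, at its end.

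A member is called bound here when an optimal summit, the highest point of a peak, lay within 500 bp of one of its transcription start sites, which says nothing of an effect on the gene. Short words of the Sox core lay near the summits of some of the 12 bound members. The stretches of 101 bp below are centred on the summit and read 5′ to 3′ on the strand of the member, from the RefSeq sequence of release 6. They are shown because they hold a searched word within the stretch or, for UQCR-6.4L, because it was the bound duplicate and held none here. Capitals mark the Sox core ACAAT or its longer form AACAAT, the word TAACA, or a word of the nuclear respiratory gene (NRG) element, on either strand.
ND-ASHI (chrX:6679309-6679409, minus strand): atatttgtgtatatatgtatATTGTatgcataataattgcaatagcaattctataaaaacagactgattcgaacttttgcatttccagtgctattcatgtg
ND-51 (chr2L:6062787-6062887, minus strand): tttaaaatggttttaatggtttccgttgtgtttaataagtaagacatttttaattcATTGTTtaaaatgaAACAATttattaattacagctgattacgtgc
ND-SGDH (chr3L:12138657-12138757, minus strand): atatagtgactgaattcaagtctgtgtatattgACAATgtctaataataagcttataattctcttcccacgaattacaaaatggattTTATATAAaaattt
ND-23 (chr3R:15837193-15837293, minus strand): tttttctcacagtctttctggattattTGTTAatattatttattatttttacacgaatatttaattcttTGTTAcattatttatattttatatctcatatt
ND-MNLL (chrX:7893850-7893950, minus strand): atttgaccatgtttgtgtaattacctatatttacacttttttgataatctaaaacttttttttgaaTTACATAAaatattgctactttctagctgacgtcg
COX7B (chr3L:17425288-17425388, plus strand): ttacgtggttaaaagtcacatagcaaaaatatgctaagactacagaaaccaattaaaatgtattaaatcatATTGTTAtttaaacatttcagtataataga
COX5B (chr2L:6557503-6557603, plus strand): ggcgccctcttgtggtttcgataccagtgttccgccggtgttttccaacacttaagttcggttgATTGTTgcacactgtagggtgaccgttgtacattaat
ATPsynCF6 (chr3R:23356150-23356250, minus strand): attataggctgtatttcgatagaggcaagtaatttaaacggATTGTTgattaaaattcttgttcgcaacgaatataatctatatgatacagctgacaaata
UQCR-6.4L (chr3L:16566259-16566359, plus strand): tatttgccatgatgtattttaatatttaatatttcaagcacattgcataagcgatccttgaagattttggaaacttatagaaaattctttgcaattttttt

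In ND-51 the word AACAAT occurred on both strands close to the summit, and COX7B, COX5B and ATPsynCF6 held it on 1 strand within the stretch shown. ND-SGDH held ACAAT and the NRG word TTATATAA, and ND-MNLL held the NRG word TTACATAA. ND-ASHI held ACAAT, and ND-23 held TAACA at 2 places. Within 100 bp of the summit, 6 of the 12 bound members held AACAAT (50%), against 27.2% of the 2053 optimal promoter peaks of the genome. The shorter ACAAT, which is contained in AACAAT, lay in 8 of 12 (66.7%, against 54.3%), and TAACA, which can overlap both, in 5 of 12 (41.7%, against 50.9%). An NRG word lay within 100 bp of the summit in ND-42, ND-SGDH and ND-MNLL (3 of 12, 25%, 95% Wilson interval 8.89 to 53.2%), against 6.38% of all promoter peaks. With 12 peaks the 95% Wilson interval for AACAAT ran from 25.4 to 74.6%, which includes the value of all promoter peaks. Neither the DRE word TATCGATA nor the E-box CACGTG was found in these windows, where 4.14% and 1.66% of all promoter peaks held them. The median share of A and T was 68.9% in the 12 windows and 67.7% in all promoter peaks.

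Optimal summits lay within 500 bp of a transcription start site (TSS) at 12 of the 88 genes (13.6%, 95% Wilson interval 7.98 to 22.3%). Over all protein-coding genes the share was 16.9% (2362 of 13968), so the share of the members was near the background. The median number of TSSs was 1 in members and in all genes, and a median of 1001 bp lay within 500 bp of a TSS in both. The highest numbers differed, with 3 TSSs and 2248 bp in members against 16 TSSs and 16016 bp in all genes. With only the outermost TSS of each gene, the shares with an optimal summit were 13.6% of members and 14.5% of all genes. In the pooled list, which reaches weaker peaks, 25 members (28.4%) had a summit there, against 29.5% of all genes. The distance to the nearest optimal summit had a median of 6704 bp in members and 6742 bp in all genes with a peak on their arm.

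Complex I, NADH dehydrogenase, had the most bound members. Its count was 7 of 40 (17.5%, interval 8.75 to 31.9%). Complex IV, cytochrome c oxidase, followed with 3 of 16 (18.8%, 6.59 to 43.0%), complex III had 1 of 9 (11.1%, 1.99 to 43.5%) and complex V 1 of 15 (6.67%, 1.19 to 29.8%). Complex II, succinate dehydrogenase, had 0 of 8, for which the interval reaches 32.4%. The intervals of the 5 complexes overlap each other and hold the 16.9% of all genes, so no difference between complexes was resolved by these counts. Without replicate 3 complex I had 4 of 40 (10%, all genes 15.6%), and without replicate 2 complex V had 3 of 15 (20%, all genes 20.4%). In the pooled list the shares were closer together, with 12 of 40, 2 of 8, 2 of 9, 5 of 16 and 4 of 15 for complexes I to V. The complexes also differ in their number of L duplicates. Without these, the optimal counts were 7 of 34 (20.6%), 0 of 5, 0 of 6, 3 of 8 (37.5%) and 1 of 11 (9.09%). The intervals of these counts overlap as well.

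**Figure D1:**
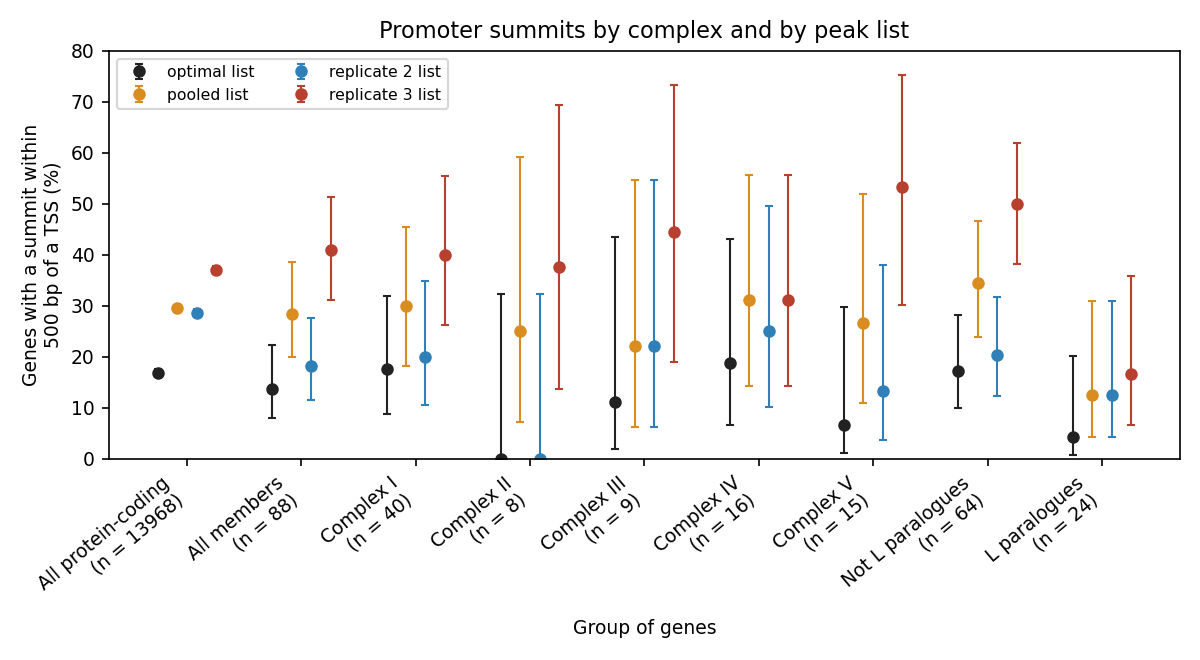
Percentage of genes with a summit within 500 bp of a TSS (vertical axis) in all protein-coding genes, all 88 members, the 5 complexes, the members that are not L duplicates and the 24 that are (horizontal axis), in each of the 4 peak lists; bars are 95% Wilson intervals. In the optimal list all members stand at 13.6% and all genes at 16.9%, and the L duplicates at 4.17%.

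Among the 7 core subunits of complex I encoded in the nucleus (ND-75, ND-51, ND-49, ND-30, ND-24, ND-23 and ND-20), the conserved catalytic core, ND-51 and ND-23 were bound. ND-51, the subunit that holds the flavin, had an optimal signal value of 481 (rank 1287 of 7488), with 171 in the list of replicate 2 and 313 in that of replicate 3. ND-23, an iron-sulphur subunit, had 244 (rank 3063), with 187 in replicate 3 and no overlapping peak in replicate 2. The summits lay 80 bp upstream of the TSS of ND-51 on 2L (peak 6062700 to 6063007) and 126 bp upstream of that of ND-23 on 3R (peak 15837076 to 15837281), both between genes.

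The other 5 bound genes of complex I encode accessory subunits. ND-MWFE on 2R (peak 13158315 to 13158685) had the highest value of all members, 757 (rank 592), with 300 in replicate 2 and 447 in replicate 3. ND-ASHI on X (6679211 to 6679531) followed with 735 (rank 630), and 282 and 447 in the replicates. Their ranks in the lists of 30000 were close, 562 and 621 in replicate 2 and 659 and 656 in replicate 3. ND-42 on 3R (22027260 to 22027774) had 457, with 259 in replicate 3 and no peak in replicate 2, whose nearest summit was 14387 bp away. ND-SGDH on 3L (12138596 to 12138813) had 265, with 161 in replicate 3 and again no overlapping peak in replicate 2. ND-MNLL on X (7893783 to 7893958) had 223, with 73.3 and 152 in the replicates.

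Genes of cytochrome c oxidase, ATP synthase and complex III made up the other 5. COX5A on 3R (11819336 to 11819562) had 300, with 189 in replicate 3 and no peak in replicate 2. COX7B on 3L (17425234 to 17425415) had 221, with 58.4 and 160 in the replicates, and COX5B on 2L (6557433 to 6557614) had 208, with 66.0 and 140. Of the ATP synthase, ATPsynCF6, a subunit of the stalk that joins the membrane part to the catalytic head, was bound with 143 on 3R (23356126 to 23356291), with 51.9 and 107 in the replicates. UQCR-6.4L, a duplicate of a small subunit gene of complex III, had 176 on 3L (16566233 to 16566423), with 53.8 and 107. Its summit lay 441 bp upstream of the TSS, in an intron of Mipp1, an inositol phosphate phosphatase gene.

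The 12 signal values ran from 143 to 757 with a median of 255, against a median of 266 and a range of 97.2 to 4785 over all optimal promoter peaks. Above that median stood 5 of the 12. The peaks were narrow, with a median width of 212 bp (166 to 515 bp), against 351 bp over all optimal promoter peaks. Each of the 12 intervals occurred once in the list.

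**Figure D2:**
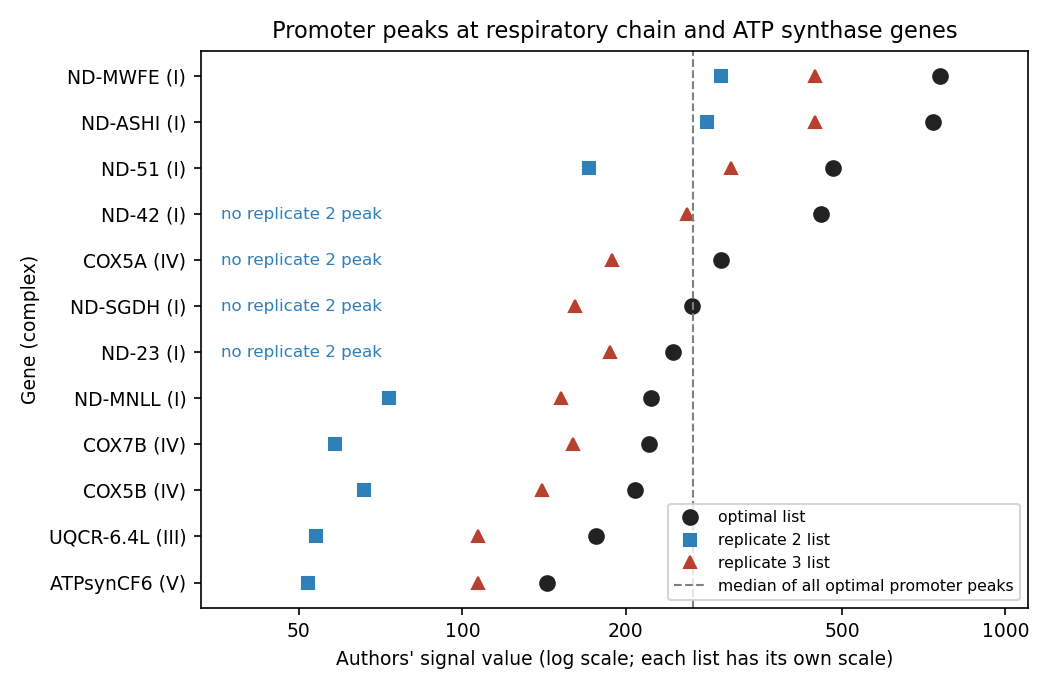
Signal values (horizontal axis, log scale, the authors' score) of the 12 optimal promoter peaks of members, with the overlapping peak of replicate 2 and replicate 3; the vertical axis gives genes with their complex. ND-42, COX5A, ND-SGDH and ND-23 have no replicate 2 peak, although their optimal values of 457, 300, 265 and 244 exceed those of 5 genes that have one.

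Replicate 3 had a peak over each of the 12 optimal peaks, and replicate 2 over 8. For the 4 without one (ND-42, COX5A, ND-SGDH and ND-23) the nearest summit of replicate 2 was 1882 to 14387 bp away. Among all optimal promoter peaks, 92.1% overlapped a replicate 2 peak and 99.6% a replicate 3 peak. A missing replicate 2 peak was found at 12.1% of the 604 promoter peaks that lie at 2 or more genes and at 6.14% of the 1449 at 1 gene. The 4 results therefore rest on replicate 3 and the pooled reads. The cause of the missing peaks was not tested.

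In the full replicate lists the members stood near all genes in replicate 3 and lower in replicate 2. Replicate 3 had a summit within 500 bp of a TSS at 36 members (40.9%, interval 31.2 to 51.4%), against 37.0% of all genes. Replicate 2 had one at 16 members (18.2%, interval 11.5 to 27.5%), against 28.6% of all genes, just above that interval. At 12 members (13.6%) replicate 3 had a summit and the pooled list had none, against 9.89% of all genes. The highest of these were ND-24, a core subunit gene of complex I, with 368 (rank 925 in replicate 3), and ATPsynE, a membrane subunit gene of ATP synthase, with 173 (rank 2769). ATPsyngamma, the rotating shaft of the ATP synthase, had 72.9 and SdhC, a membrane anchor of complex II, had 69.4 in replicate 3. No peak of replicate 2 or of the pooled list overlapped these 4. Of the 7488 highest replicate 3 peaks 7.28% overlapped no pooled peak, and of those at promoters 16.0% did, against 2.04% and 3.84% in replicate 2. The cause was not tested.

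Most bound members stood at promoters that face a gene on the opposite strand. At 11 of the 12 (91.7%, interval 64.6 to 98.5%) the TSS of another protein-coding gene lay within 500 bp of the summit, against 48.3% of all 2362 bound genes. In each of these 11 a neighbour was on the opposite strand, and at 10 of them the summit lay between the nearest TSSs of both. The member's TSS was the nearer in 5 and the neighbour's in 6, so the peak cannot be given to the member rather than to its neighbour. COX5A was the exception by its nearest TSS, with its summit 117 bp inside the gene, in an intron. The summit lay 56 bp upstream of the TSS of glo, whose start lies 61 bp inside COX5A. COX5A has a further TSS downstream of the summit, so the summit also lay between that TSS and the TSS of glo. UQCR-6.4L had no TSS of another protein-coding gene within 500 bp of its summit, although the summit lay inside Mipp1.

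Some of these neighbours encode mitochondrial proteins themselves. The peak of ND-ASHI was shared with Fum1, a fumarase gene of the citric acid cycle. Its nearest TSS lay 281 bp from the summit on the other side and 522 bp from that of ND-ASHI. Fum1 also has a TSS further upstream, and the summit lay in an intron of Fum1. ND-42 shared its peak with Cchl, the gene for the enzyme that attaches haem to cytochrome c, and the summit was 8 bp upstream of the TSS of Cchl but 221 bp upstream of that of ND-42. Other partners have other roles. ND-23 was paired with spn-E, a helicase gene of the germline piRNA pathway, ND-MWFE with the peptidase gene TppII, and ND-SGDH with RhoGAP68F. The summit of ND-MWFE lay in an intron of TppII. The vesicle transport genes Sec3, Sec13 and p115 lay opposite COX7B, ATPsynCF6 and ND-MNLL, IFT52, a gene of transport in cilia, opposite COX5B, and CG13994 opposite ND-51. ND-MNLL also shares its TSS with CG45089 on the same strand.

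**Figure D3:**
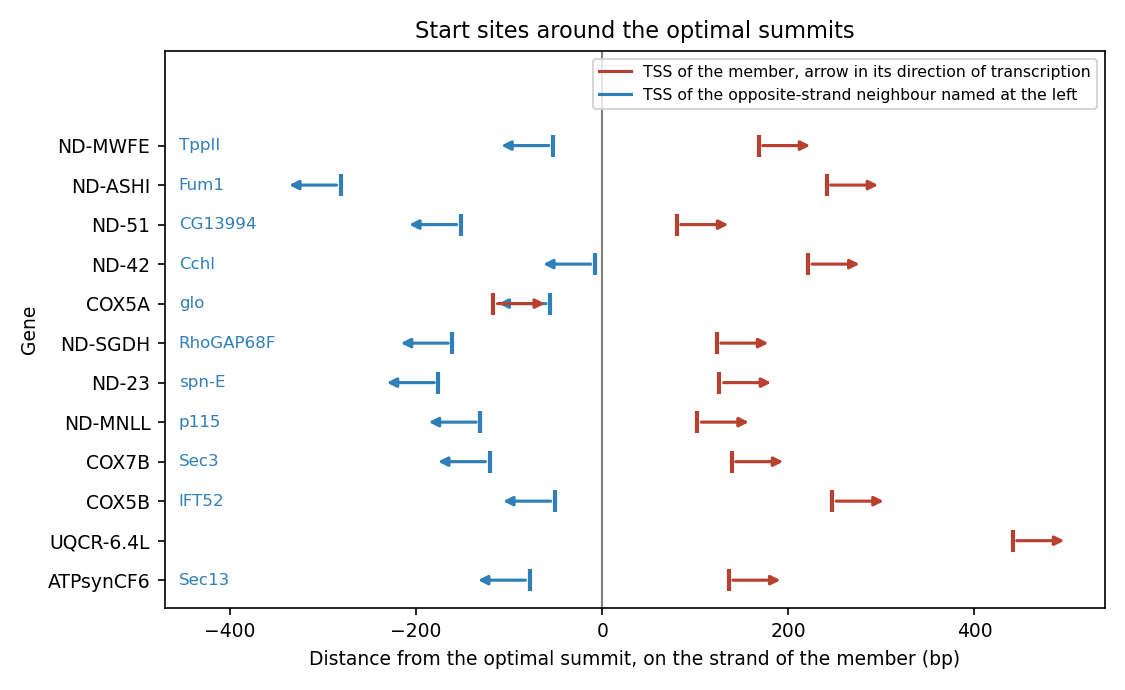
Position of the member's TSS and of the TSS of the opposite-strand neighbour (horizontal axis, bp from the optimal summit on the strand of the member) for the 12 bound members (vertical axis); arrows point in the direction of transcription. In 10 genes the summit lies between both start sites, in COX5A downstream of both on the strand of COX5A, and UQCR-6.4L has no such neighbour. Only the TSS nearest to the summit is drawn for each gene, and a further TSS of COX5A, downstream of the summit, is not shown.

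Genes with such a close neighbour were bound more often in the genome as a whole. Of all protein-coding genes, 30.8% had the TSS of another within 500 bp of their own, and 26.2% of these were bound, against 12.8% of the genes without. Among members 41 of 88 (46.6%, interval 36.5 to 56.9%) had a close neighbour, and 11 of the 41 were bound (26.8%, interval 15.7 to 41.9%), which is near the genome's 26.2%. A close neighbour on the opposite strand was present at 45.5% of members and 27.8% of all genes. Of these genes 27.5% and 26.7% were bound, so the shares were near each other. Of the 47 members without a close neighbour 1 was bound (2.13%, interval 0.377 to 11.1%), which lies under the genome's 12.8%. That gene was UQCR-6.4L. In the longer lists the members without a close neighbour stayed below all such genes. The shares were 9 of 47 (19.1%, against 27.1%) in the pooled list, 6 of 47 (12.8%, against 27.1%) in that of replicate 2 and 12 of 47 (25.5%, against 31.2%) in that of replicate 3. The interval for replicate 2 (5.98 to 25.2%) lies under the share of all such genes, and those for the pooled list (10.4 to 32.5%) and replicate 3 (15.3 to 39.5%) include it.

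**Figure D4:**
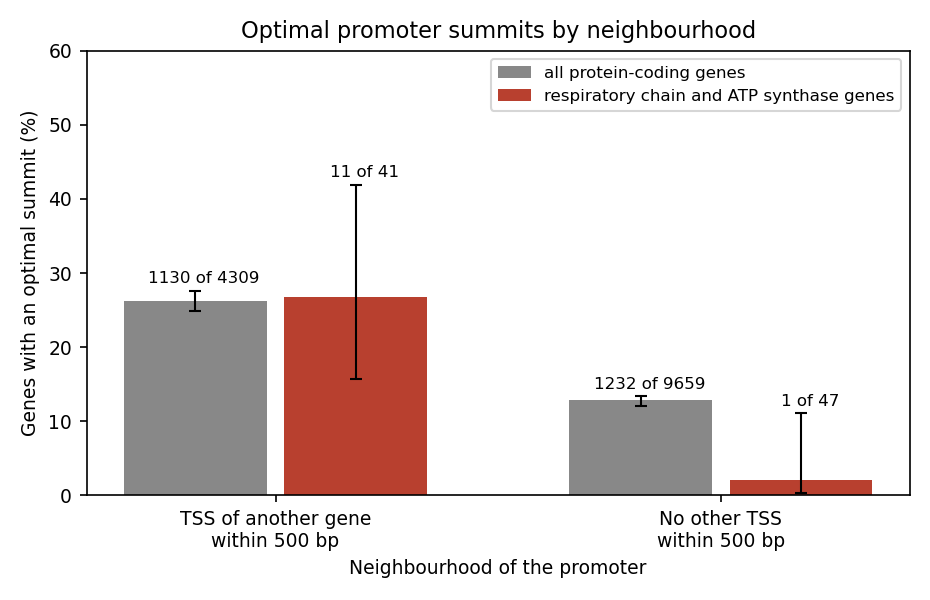
Percentage of genes with an optimal summit within 500 bp of a TSS (vertical axis) in genes with and without the TSS of another protein-coding gene within 500 bp of their own (horizontal axis), for all protein-coding genes and the members; bars are 95% Wilson intervals, with the counts above. Members with a neighbour stand at 26.8% beside 26.2% of all such genes, and members without at 2.13% beside 12.8%.

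The L duplicates were compared with the other members, beside 16.9% of all genes in the optimal list. Of the 21 members whose symbol ends in L, 2 were bound (9.52%, interval 2.65 to 28.9%), against 10 of the 67 others (14.9%, 8.31 to 25.3%). However, 1 of the 2 was ND-MNLL, whose name spells amino acids of the subunit and marks no duplicate. With ND-MNLL counted among the others, and ND-51L1, ND-51L2, COX6AL2 and COX7AL2 among the duplicates, 1 of 24 duplicates was bound (4.17%, interval 0.739 to 20.2%), against 11 of 64 (17.2%, interval 9.88 to 28.2%). In the pooled list the counts were 3 of 24 (12.5%) and 22 of 64 (34.4%), against 29.5% of all genes. In the full replicate 3 list they were 4 of 24 (16.7%, interval 6.68 to 35.9%) and 32 of 64 (50%, interval 38.1 to 61.9%). The 37% of all genes lies between these intervals, with the duplicates below it and the others above. This did not hold in the full replicate 2 list. There the counts were 3 of 24 (12.5%, interval 4.34 to 31%) and 13 of 64 (20.3%, interval 12.3 to 31.7%). Both intervals include the 28.6% of all genes. The optimal intervals of the duplicates and the others overlap. The duplicates also differed in their surroundings, since 3 of 24 (12.5%) had a close neighbour, against 38 of 64 (59.4%). Without a close neighbour, 1 of 21 duplicates (4.76%, interval 0.846 to 22.7%) and 0 of 26 other members (interval up to 12.9%) were bound. These counts are too low to show whether the duplicates differ from the others among such genes. In the pooled list they were 3 of 21 (14.3%, interval 4.98 to 34.6%) and 6 of 26 (23.1%, interval 11 to 42.1%), with overlapping intervals. In the replicate 3 list the shares without a close neighbour were 3 of 21 (14.3%, interval 4.98 to 34.6%) and 9 of 26 (34.6%, interval 19.4 to 53.8%), whose intervals overlap. In the replicate 2 list the order was the reverse, with 3 of 21 (14.3%, interval 4.98 to 34.6%) and 3 of 26 (11.5%, interval 4 to 29%).

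Each duplicate was set beside the gene it resembles. Over 24 duplicates and 21 parents, 0 pairs had an optimal summit at both genes, 1 had it at the duplicate alone, 7 at the parent alone and 16 at neither. With 1 bound duplicate, at most 1 pair could have had both. In the pooled list the numbers were 0, 3, 9 and 12. The parents bound alone were ND-51 (481, with the duplicates ND-51L1 and ND-51L2), levy (366, with COX6AL and COX6AL2), COX5B (208), cype (202, with COX6CL) and ATPsynCF6 (143, with ATPsynCF6L). COX5B and COX5BL lie in tandem on 2L with their starts 1631 bp apart, and COX5BL had no summit closer than 1878 bp in the optimal list. UQCR-6.4L was the duplicate bound without its parent UQCR-6.4, whose nearest optimal summit was 4160 bp away.

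Weak pooled peaks were found at 2 more duplicates. COX7AL2 had a pooled value of 41.0 with 65.9 in replicate 2 and 14.7 in replicate 3, and ND-B14.5AL had 30.0 with 16.4 in replicate 3 and none in replicate 2. Signal values of different lists are not on a common scale, so these are not compared. No summit within 500 bp of a TSS was found in the optimal or pooled list at the other duplicates beside those of the bound parents above, namely ND-20L, ND-24L, ND-49L, SdhAL, SdhBL, SdhCL, UQCR-11L, UQCR-14L, COX4L, COX7AL, COX7CL, ATPsynGL, ATPsynbetaL and ATPsynepsilonL.

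Below the threshold of the optimal list, 13 members (14.8%, against 12.6% of all genes) had a pooled summit at a TSS, with values from 22.1 to 96.7 and a median of 41.0. ATPsynC, the gene of the ring subunit of ATP synthase, came nearest, with 96.7 (rank 7531) against the lowest optimal value of 97.2. COX7C followed with 70.4, ND-B22 with 53.3, ND-AGGG with 51.4 and SdhD, a membrane anchor of complex II, with 51.1. ND-39 (44.5), UQCR-Q (39.9), ATPsyndelta (39.7) and ATPsynD (37.4) completed the 10 highest together with COX7AL2. A replicate 3 summit was present at 12 of the 13 and a replicate 2 summit at 7. Just outside the window, 3 members had an optimal summit between 500 and 1000 bp from a TSS, COX7AL2 at 513 bp, ATPsynE at 817 bp and ND-39 at 997 bp. From the window of 500 bp to that of 1000 bp the share rose from 13.6% to 17% in members. In all genes it rose from 16.9% to 20.8%.

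Words of the NRG element, a palindromic motif described at Drosophila genes of mitochondrial respiration, were searched as TTACATAA, TTACGTAA, TTATATAA and TTATGTAA on both strands. Within 100 bp of the outermost TSS 9 of 88 members held a word (10.2%, interval 5.47 to 18.3%), against 2.31% of all protein-coding genes. All 9 were other than L duplicates, among which 0 of 24 held a word. Of the 9, ND-SGDH and ND-MNLL were bound, and ND-18, ND-20, ND-30, ND-49, ND-ACP, ND-B14.7 and ATPsyngamma were not. Member promoters were richer in A and T, with a median of 64.7% in this window against 58.7%, and the words consist mostly of these bases. In the window from 250 bp before to 50 bp after the TSS the shares were 6.82% of members and 5.18% of all genes, so the difference was much smaller there. Within 100 bp of the TSS, TAACA was held by 52.3% of members (interval 42 to 62.4%) and 36.6% of all genes, and ACAAT by 55.7% (interval 45.3 to 65.6%) and 45.1%. AACAAT was held by 23.9% of members and 21.6% of all genes, TATCGATA by 6.82% and 7.83%, and CACGTG by 1.14% and 2.88%. In the longer window TAACA was held by 60.2% of members (interval 49.8 to 69.8%), which includes the 53.6% of all genes. These words, too, were counted in member windows with more A and T, and the part of base composition was not tested.

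Genes of oxidative phosphorylation with other symbols had summits at 5 of 14 promoters (35.7%, interval 16.3 to 61.2%). Cyt-c-d, a cytochrome c gene with a role in spermatogenesis, had the highest optimal value of the genes named here, 1791 (rank 84), with 683 in replicate 2 and 1108 in replicate 3, but its summit lay 363 bp inside the gene and was shared with CG31808. CIA30, an assembly factor gene of complex I, had 1110 (370 and 740 in the replicates), blw, the alpha subunit of ATP synthase, 456 (193 and 264), levy 366 (212 in replicate 3 and none in replicate 2) and cype 202 (65.8 and 133). The peak of blw had no TSS of another protein-coding gene within 500 bp of its summit. In contrast, CIA30 shared its peak with CG7601, levy with wmd and cype with Ncoa6.

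In the citric acid cycle and pyruvate dehydrogenase list 4 of the 19 genes found were bound (21.1%, interval 8.51 to 43.3%). They were Idh3g, a subunit of isocitrate dehydrogenase, with 1451, Fum1 with the peak it shares with ND-ASHI, muc, a pyruvate dehydrogenase gene, with 153, and Idh with 145. Of 14 genes for the expression and upkeep of the mitochondrial genome 3 were bound (21.4%, interval 7.57 to 47.6%), mtSSB with 674, the mitochondrial RNA polymerase gene PolrMT with 181 and mTerf3 with 97.5, close to the threshold. mtSSB, the single-strand DNA binding protein of mitochondria, had 102 in replicate 2 and 574 in replicate 3. Idh3g shared its peak with CG4743, PolrMT with CG14339 and mTerf3 with CG5104, so these peaks cannot be given to the named gene alone. The summits of muc, Idh and mtSSB had no TSS of another protein-coding gene within 500 bp. The regulators srl, ewg, Ets97D and TFAM had no optimal summit. The intervals of all 3 lists include the 16.9% of all genes.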

How the data were processed

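Peak lists in narrowPeak format on dm6 were analysed. Per the deposited file lists, a control was used in calling, another list pooled both replicates, and the optimal list was derived from the other 3. No aligner or peak caller is named in these sources. The signal value is the authors' score per peak, with no stated depth scaling, and was read within a list. The deposited −log10 q-value was capped and not used. Summits were taken as start plus offset. Arm names and lengths of the Ensembl release 115 annotation and of the RefSeq sequence held every peak.

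Summits within 500 bp of any TSS of a gene were counted, with 95% Wilson intervals that cover counting of genes only. With 1 group no test was run. The search was tested on simulated summits. Shared promoters make peak assignment ambiguous. Alternatives were windows of 250 and 1000 bp, stronger peaks, interval overlap, other TSS sets and each replicate alone. Named were bound members, L duplicates, members with a summit up to 1000 bp away, the 10 highest members with a pooled peak alone and bound genes of 3 other lists. For these lists 3 symbols (Nc73EF, alphaKGDHC, Dlat) were not found. Genes with one replicate's peak, with an NRG word or as regulators were named after their values were seen. Members, lists and the core and parent assignments were chosen with earlier results of these data known. Python 3.11.15, scipy 1.17.1 and matplotlib 3.10.9 were used.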

Additional observations from a re-analysis of the deposited data

How the results depend on the processing

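The count of 12 bound members stayed within 1.5 times under each alternative except 1. When peaks with the TSS of another gene within 500 bp were left out, 1 member remained (1.14%), with a signal value of 176. This setting was not counted over all genes. Of all 2362 bound genes, 48.3% had their highest peak within 500 bp of the TSS of another gene, against 91.7% of the 12 bound members. The members were 11 in the window of 250 bp (12.5%, all genes 12.2%), no longer below all genes, and 15 in that of 1000 bp (17%, all genes 20.8%). They were 12 with only the outermost TSS (13.6%, all genes 14.5%) and 10 among peaks at or above the median signal (11.4%, all genes 11.6%). With each replicate alone, cut to the size of the optimal list, they ranged from 9 without replicate 3 (10.2%, all genes 15.6%) to 16 without replicate 2 (18.2%, all genes 20.4%). Without replicate 3, ND-23, ND-42, ND-SGDH and COX5A were lost and COX7AL2 was gained. Without replicate 2, ND-24, SdhC, ATPsynE and ATPsyngamma were gained. Leaving out a replicate gave 4 to 8 members of complex I, 0 to 1 of complex II and 1 to 3 of complex V, and median signal values of 66 to 167, each on the scale of its own list. In the window of 250 bp complex III had 0 and symbols ending in L had 1, and in that of 1000 bp complex V had 2. Symbols ending in L had 1 among peaks at or above the median signal. With L or L and a digit and the parent symbol annotated the count was 1 of 20, and 1 of 24 without ND-MNLL, a rule chosen after seeing the data. In the longer promoter window ACAAT was held by 72.7% of members (interval 62.6 to 80.9%, all genes 61.3%) and AACAAT by 36.4% (all genes 32.1%), where more bases were searched. Otherwise the cause of these changes was not tested. Group sizes of 8 to 40 genes per complex limit what can be resolved. No paired analysis was possible because the 2 samples form 1 group.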
